A study of Mus musculus with 48 samples.

Results

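The integrated stress response was followed through 10 genes, which were read out of 42548 genes in a count table of mouse lung RNA by their Ensembl identifiers. They are Eif2ak3, the kinase, Atf4, Ddit3 and Atf3, transcription factors, Trib3, Chac1, Ppp1r15a and Sesn2, feedback and stress outputs, and Asns and Psat1, amino acid enzymes. All 10 passed the filter on low counts in each of the 10 comparisons made. RiboTag mice, in which an HA-tagged ribosomal protein lets ribosome-bound RNA be precipitated with an anti-HA antibody, each gave a pair of libraries, 1 epithelial and 1 of whole lung, 48 from 24 mice in all, made with the QuantSeq Forward kit, which counts RNA at its 3' end.

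The arms were bleomycin with KIRA8 (5 mice), bleomycin with 3G9 (4 mice), bleomycin with a control agent (9 mice) and saline with a control agent (6 mice). Bleomycin injures the lung and leads to fibrosis in mice. KIRA8 is a small-molecule inhibitor of the kinase IRE1α, and 3G9 is an antibody against the integrin αvβ6, which activates TGFβ. The control agent was labelled Vehicle in batches S061 and S135 and Axum8 in batch S151. S061 held 3 KIRA8 and 3 bleomycin control mice, S135 held 2 KIRA8, 2 bleomycin control and 3 saline mice, and S151 held 4 3G9, 4 bleomycin control and 3 saline mice. Of the 24 mice 8 were female and 16 male. The ages of the mice, the dose and time of bleomycin and the driver of the ribosome tag were not stated in the labels. The labels give the same extraction for both compartments and do not say how whole lung RNA was prepared, so it may or may not have been ribosome-bound, and 1 whole lung column (3G9 mouse 218) carries an unexplained suffix.

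In the integrated stress response, kinases that sense endoplasmic reticulum stress, amino acid shortage, heme shortage or viral RNA phosphorylate the translation factor eIF2α. This lowers protein synthesis in general while the mRNA of the transcription factor ATF4 is translated more, so ATF4 is controlled in good part by translation and not by the amount of its mRNA. ATF4, with its target CHOP (Ddit3), turns on genes of amino acid synthesis, redox control and feedback, among them the phosphatase subunit GADD34 (Ppp1r15a) that reverses eIF2α phosphorylation. IRE1α, the target of KIRA8, is the sensor of a different branch of the endoplasmic reticulum stress response from PERK, the product of Eif2ak3.

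ATF4 binds, with C/EBP partners, a composite element whose core is written here as TGATGNAA. That core, looked for on both strands of RefSeq promoter windows from 250 bases before to 50 bases after each gene's start (GRCm38.p6), was present in 4 of the 10 genes, Atf3, Chac1, Trib3 and Asns, and in 3.97% of 32851 promoter windows. The cAMP response element TGACGTCA, which ATF and CREB factors bind, was present in Ppp1r15a and in 1.79% of windows. The endoplasmic reticulum stress element was in none of the 10 and in 0.119% of windows. The matches are shown 5′ to 3′ on the strand of the gene with the matched letters in capitals. They lie beside genes that moved and genes that did not. The Atf3 window is chr1:191183401-191183478 on the minus strand, with the match starting at -110 from the gene's start and lying on the opposite strand. The Chac1 window is chr2:119351014-119351091 on the plus strand, with the match at -193 and on the opposite strand. The Asns window is chr6:7693210-7693267 on the minus strand, with the match at -23. The Ppp1r15a window is chr7:45526269-45526315 on the minus strand, with its palindromic match at -12. The Trib3 window is chr2:152344028-152344057 on the minus strand, with the match at 14 and on the opposite strand.
Atf3: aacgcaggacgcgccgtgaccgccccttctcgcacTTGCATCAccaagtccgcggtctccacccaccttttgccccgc
Chac1: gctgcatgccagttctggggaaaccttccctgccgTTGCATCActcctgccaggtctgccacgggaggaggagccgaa
Asns: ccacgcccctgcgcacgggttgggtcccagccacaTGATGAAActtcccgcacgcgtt
Ppp1r15a: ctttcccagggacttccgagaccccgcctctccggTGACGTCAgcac
Trib3: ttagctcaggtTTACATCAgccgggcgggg
A match describes these letters only. Psat1 and Sesn2, like Eif2ak3, Atf4 and Ddit3, had none of the 3 motifs in this window.

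Libraries of S061 held 21790283 to 51797377 counts in total, those of S135 7163613 to 20468041, and those of S151 24751240 to 36945995. Levels are given as normalised CPM (edgeR's CPM on library sizes scaled by TMM within a compartment), and fold changes and adjusted p values come from edgeR's quasi-likelihood test over all genes with arm and batch as terms. A gene was called at an adjusted p under 0.05. Each fold change is relative to most genes: with plain library totals the median of all genes moved to 0.37 (log2) for bleomycin control against saline in epithelium and to -0.21 for KIRA8 against bleomycin control there. A group of 146 genes was limited to batch S061 and made up 10.8% ± 1.76 of counts in KIRA8 and 7.72% ± 1.48 in bleomycin control epithelium of S061 (SD, n = 3 each), and 0 of the 10 genes were in it. Markers of cell types could not be looked up, because the table has no gene symbols and the reference table matched 0 of its identifiers, so the epithelial label was not checked against markers. In tissue libraries fewer cells of a type and less RNA per cell cannot be told apart.

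Bleomycin raised Psat1, Sesn2 and Atf3 RNA in both compartments, and the kinase, Atf4 and Ddit3 were not called in either. In epithelium 3 of the 10 genes were called, all higher after bleomycin: Psat1, Sesn2 and Atf3. In whole lung 4 were called, all higher: the same 3 and Asns. Over all genes 8.72% were called in epithelium (787 higher, 721 lower) and 10.1% in whole lung (1162 higher, 800 lower). The median log2 fold change of the 10 genes was 0.36 in epithelium, beside a median of 0.00 for all genes, and 0.17 in whole lung, beside -0.01 for all genes. With plain library totals the calls over all genes shifted to 3505 higher and 117 lower in epithelium and to 1675 higher and 308 lower in whole lung, while relative to the shift of all genes Psat1 stood at 1.72, Sesn2 at 1.09 and Atf3 at 1.14 on the log2 scale in epithelium. Because arms are spread unevenly, the 2 batches with both arms, S135 and S151, are given apart.

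**Figure D1:**
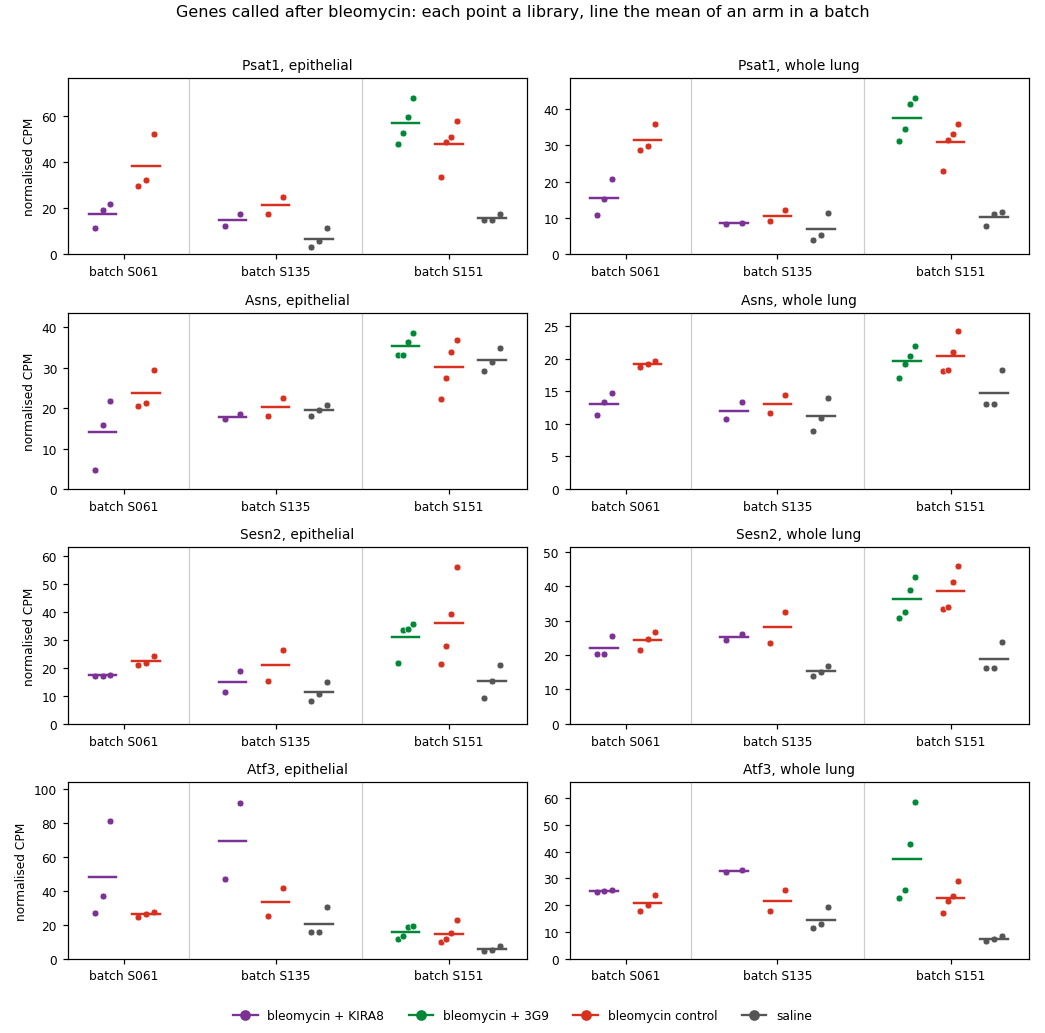
Normalised CPM (vertical axis, linear from 0) of Psat1, Asns, Sesn2 and Atf3 in each library, epithelial on the left and whole lung on the right, by batch and arm; points are libraries and lines are the mean of an arm in a batch. Bleomycin control libraries of S151 lie above all saline libraries of that batch for Psat1, Sesn2 and Atf3 in both compartments.

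Eif2ak3 (ENSMUSG00000031668) encodes PERK, the endoplasmic reticulum resident eIF2α kinase. It lies on GRCm38 chromosome 6, 70844484 to 70905241. Bleomycin control epithelium had 11.2, 15.3, 17.0 and 18.8 normalised CPM in S151, against 14.6, 14.9 and 17.5 in saline epithelium. In S135 it had 14.0 and 20.5 in bleomycin control, against 19.7, 27.3 and 32.8 in saline epithelium. The groups overlapped in both batches, with a fitted log2 difference of -0.26 ± 0.17 (SE; adjusted p 0.377). Whole lung levels in S151 ran from 24.6 to 29.1 in bleomycin control and from 22.9 to 31.7 in saline mice, and the fitted difference there was -0.07 ± 0.10 (adjusted p 0.722).

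Atf4 (ENSMUSG00000042406), on chromosome 15 from 80255184 to 80257545, encodes the central transcription factor of the response. Epithelial Atf4 stood at 224, 248, 305 and 548 normalised CPM in bleomycin control mice of S151, against 282, 320.1 and 358 in saline mice. S135 gave 179.7 and 188 in bleomycin control, against 168, 269 and 296 in saline epithelium. The 548 of mouse 206 was far above the other bleomycin control libraries, the arms overlapped in both batches, and the fitted log2 difference was -0.07 ± 0.18 (adjusted p 0.862). Without mouse 206 it was -0.27 ± 0.15 (adjusted p 0.263). Whole lung Atf4 in S135 was 374 and 390.2 in bleomycin control, against 254, 316 and 331 in saline mice, which do not overlap. Of all genes, 14.7% likewise lay above without overlap in whole lung of S135. In S151 whole lung Atf4 ran from 307 to 419 in bleomycin control and from 277 to 431 in saline mice. The ranges overlapped there, and the fitted difference was 0.22 ± 0.11 (adjusted p 0.207). The value passed with plain library totals (0.34, adjusted p 0.0442).

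Ddit3 (ENSMUSG00000025408), on chromosome 10 from 127290793 to 127296291, encodes CHOP, a transcription factor induced by ATF4 and linked to cell death under lasting stress. Bleomycin control epithelium had 4.92, 8.85, 9.20 and 13.2 normalised CPM in S151, against 6.42, 6.84 and 12.7 in saline epithelium. S135, the batch where Ddit3 was highest, gave 18.1 and 19.5 in bleomycin control, against 18.8, 24.2 and 29.5 in saline epithelium. The fitted log2 difference was -0.03 ± 0.22 (adjusted p 0.963), and the arms overlapped in both batches. In whole lung of S135 the 33.0 and 36.0 of bleomycin control lay just below the 36.3, 37.9 and 60.5 of saline mice. Of all genes, 15.6% lay below without overlap there. The S151 whole lung levels overlapped, and the fitted difference was -0.19 ± 0.14 (adjusted p 0.437).

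Atf3 (ENSMUSG00000026628), on chromosome 1 from 191170296 to 191183333, encodes a stress-induced transcription factor that ATF4 and other signals switch on. Epithelial Atf3 was 9.69, 11.4, 15.1 and 22.9 normalised CPM in bleomycin control mice of S151, against 4.56, 4.92 and 7.26 in saline mice. S135 gave 24.8 and 41.4 in bleomycin control, against 15.7, 15.7 and 30.6 in saline epithelium. Every bleomycin control library of S151 lay above every saline library, while in S135 saline mouse 153 lay above 1 of the 2 bleomycin control libraries. Of all genes, 7.66% lay above without overlap in epithelium of S151. Atf3 rose by 1.09 ± 0.27 on the log2 scale in epithelium, 2.13-fold (adjusted p 0.0116). In whole lung it was 17.2, 21.4, 23.5 and 28.8 in bleomycin control of S151, against 6.60, 7.32 and 8.63 in saline mice, again with no overlap. The whole lung fit gave 1.17 ± 0.22 (adjusted p 0.00169). Within batches the epithelial change was 1.41 ± 0.31 in S151 (adjusted p 0.0219) and 0.74 ± 0.40 in S135 (adjusted p 0.485), and the whole lung change was 1.58 ± 0.31 (adjusted p 0.0188) and 0.61 ± 0.25 (adjusted p 0.214).

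Trib3 (ENSMUSG00000032715), on chromosome 2 from 152337425 to 152344060, encodes a pseudokinase that is induced by ATF4 and CHOP and restrains them. Its epithelial level was 7.73, 8.36, 10.2 and 10.4 normalised CPM in bleomycin control mice of S151, against 5.73, 7.26 and 10.01 in saline mice. In S135 it was 4.72 and 6.19, against 1.5998, 4.96 and 5.87 in saline mice. The arms overlapped in both batches and the fitted log2 difference of 0.40 ± 0.24 was not called (adjusted p 0.330), although it passed with plain library totals (0.78, adjusted p 0.0269). Whole lung Trib3 differed by 0.12 ± 0.18 (adjusted p 0.734).

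Chac1 (ENSMUSG00000027313), on chromosome 2 from 119351242 to 119354326, encodes an enzyme that breaks down glutathione and is a target of the ATF4 and CHOP pathway. It was the gene with the fewest counts. Bleomycin control epithelium of S151 had 0.0370, 2.14, 2.59 and 2.95 normalised CPM, against 0.253, 0.394 and 0.646 in saline epithelium. Of the 4 bleomycin control libraries 3 lay above all saline libraries and mouse 206, with 1 count, lay below them. S135 held 0 and 4 counts in bleomycin control, against 0, 8 and 14 in saline epithelium, and a count of 0 there allows up to 0.221 normalised CPM in bleomycin control mouse 148 and 0.207 in saline mouse 152 (3 counts a library, counting error only). The fitted change was 0.99 ± 0.79 (adjusted p 0.5003), with 2.17 ± 0.84 within S151 (adjusted p 0.193) and -1.97 ± 2.39 within S135 (adjusted p 0.803). Leaving out 1 mouse moved it between 0.63 and 1.54, none of them called. Whole lung Chac1 stood at -0.07 ± 0.29 (adjusted p 0.921). Levels also differed between batches, and bleomycin control whole lung had 5.95, 7.85 and 8.17 normalised CPM in S061, 0.513 and 1.22 in S135, and 1.94 to 3.06 in S151.

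Ppp1r15a (ENSMUSG00000040435), on chromosome 7 from 45522917 to 45526268, encodes GADD34, the regulatory subunit that brings a phosphatase to eIF2α. Epithelial levels in S151 were 52.7, 56.5, 58.1 and 103 normalised CPM in bleomycin control and 56.3, 62.1 and 82.0 in saline mice. In S135 they were 32.2 and 54.7 in bleomycin control, against 26.7, 31.0 and 39.3 in saline epithelium. The arms overlapped in both batches, and the fitted log2 difference of 0.32 ± 0.20 was not called (adjusted p 0.374), although it passed with plain library totals (0.69, adjusted p 0.0156). Whole lung levels were lower in bleomycin control than in saline mice without overlap in both batches, at 53.6 and 53.6 against 54.7, 59.4 and 60.3 in S135. The gap was small beside the fit, which gave -0.04 ± 0.12 (adjusted p 0.895). Of all genes, 15.6% in S135 and 7.72% in S151 likewise lay below without overlap.

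Sesn2 (ENSMUSG00000028893), on chromosome 4 from 132492804 to 132510456, encodes sestrin 2, a stress-induced protein that restrains the nutrient sensor mTORC1. Its epithelial level was 21.3, 28.0, 39.2 and 56.0 normalised CPM in bleomycin control mice of S151, against 9.41, 15.2 and 21.0 in saline mice. In S135 the values were 15.5 and 26.6, against 8.01, 10.7 and 15.03 in saline epithelium. The arms did not overlap in either batch, though the closest pairs lay near each other (21.3 against 21.0, and 15.5 against 15.03). Of all genes, 13.3% in S135 and 7.66% in S151 likewise lay above without overlap in epithelium. Sesn2 rose by 1.07 ± 0.22 on the log2 scale in epithelium, 2.11-fold (adjusted p 0.00253). Whole lung Sesn2 was 33.4, 33.8, 41.2 and 45.8 in bleomycin control of S151, against 16.3, 16.3 and 23.7 in saline mice, and 23.6 and 32.5 in bleomycin control of S135, against 13.8, 15.02 and 16.9 in saline mice. Within each batch no whole lung library of an arm crossed into the other, and the rise was 0.96 ± 0.12 (adjusted p 5.67e-05). Within batches the whole lung rise was called in S151 (1.03 ± 0.18, adjusted p 0.0127) and in S135 (0.92 ± 0.21, adjusted p 0.0429). In epithelium it was 1.25 ± 0.33 (adjusted p 0.0553) and 0.96 ± 0.36 (adjusted p 0.190).

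Asns (ENSMUSG00000029752), on chromosome 6 from 7675165 to 7693209, encodes asparagine synthetase, a textbook ATF4 target. Epithelial Asns did not follow bleomycin: it was 22.3, 27.5, 33.7 and 36.8 normalised CPM in bleomycin control mice of S151, against 29.1, 31.4 and 34.8 in saline mice, with the arms overlapping. The epithelial fit gave 0.06 ± 0.21 (adjusted p 0.919). Whole lung Asns was 18.02, 18.2, 21.0 and 24.3 in bleomycin control of S151, against 13.0, 13.1 and 18.2 in saline mice, and 11.7 and 14.4 in bleomycin control of S135, against 8.83, 10.8 and 14.0 in saline mice. It rose by 0.42 ± 0.13 on the log2 scale (adjusted p 0.0471), with overlap between the arms in both batches. The call was narrow: it was lost in 19 of 24 fits that each left out 1 mouse, where the log2 change ran from 0.36 to 0.50 and the adjusted p reached 0.119, and in 7 of 11 other settings.

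Psat1 (ENSMUSG00000024640), on chromosome 19 from 15905123 to 15925059, encodes phosphoserine aminotransferase, an enzyme of serine synthesis under ATF4 control. It had the largest fitted change of the 10 genes in both compartments. Epithelial Psat1 stood at 33.7, 48.6, 50.8 and 57.7 normalised CPM in bleomycin control mice of S151, against 14.7, 14.9 and 17.6 in saline mice. S135 gave 17.4 and 25.0 in bleomycin control, against 3.20, 5.88 and 11.47 in saline epithelium. Every bleomycin control library lay above every saline library of its batch, as for 13.3% of all genes in S135 and 7.66% in S151. Psat1 rose by 1.69 ± 0.23 in epithelium, 3.24-fold (adjusted p 2.4e-05), with 1.61 ± 0.20 within S151 (adjusted p 0.000593) and 1.69 ± 0.42 within S135 (adjusted p 0.0389). In whole lung it was 22.9, 31.5, 33.2 and 35.7 in bleomycin control of S151, against 7.84, 10.97 and 11.6 in saline mice. S135 whole lung gave 9.13 and 12.2 in bleomycin control, against 4.03, 5.44 and 11.4 in saline mice, so saline mouse 152 lay within the bleomycin range. The whole lung rise was 1.28 ± 0.22 (adjusted p 0.000794), called within S151 (1.596 ± 0.19, adjusted p 0.00209) and not within S135 (0.66 ± 0.39, adjusted p 0.434).

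**Figure D2:**
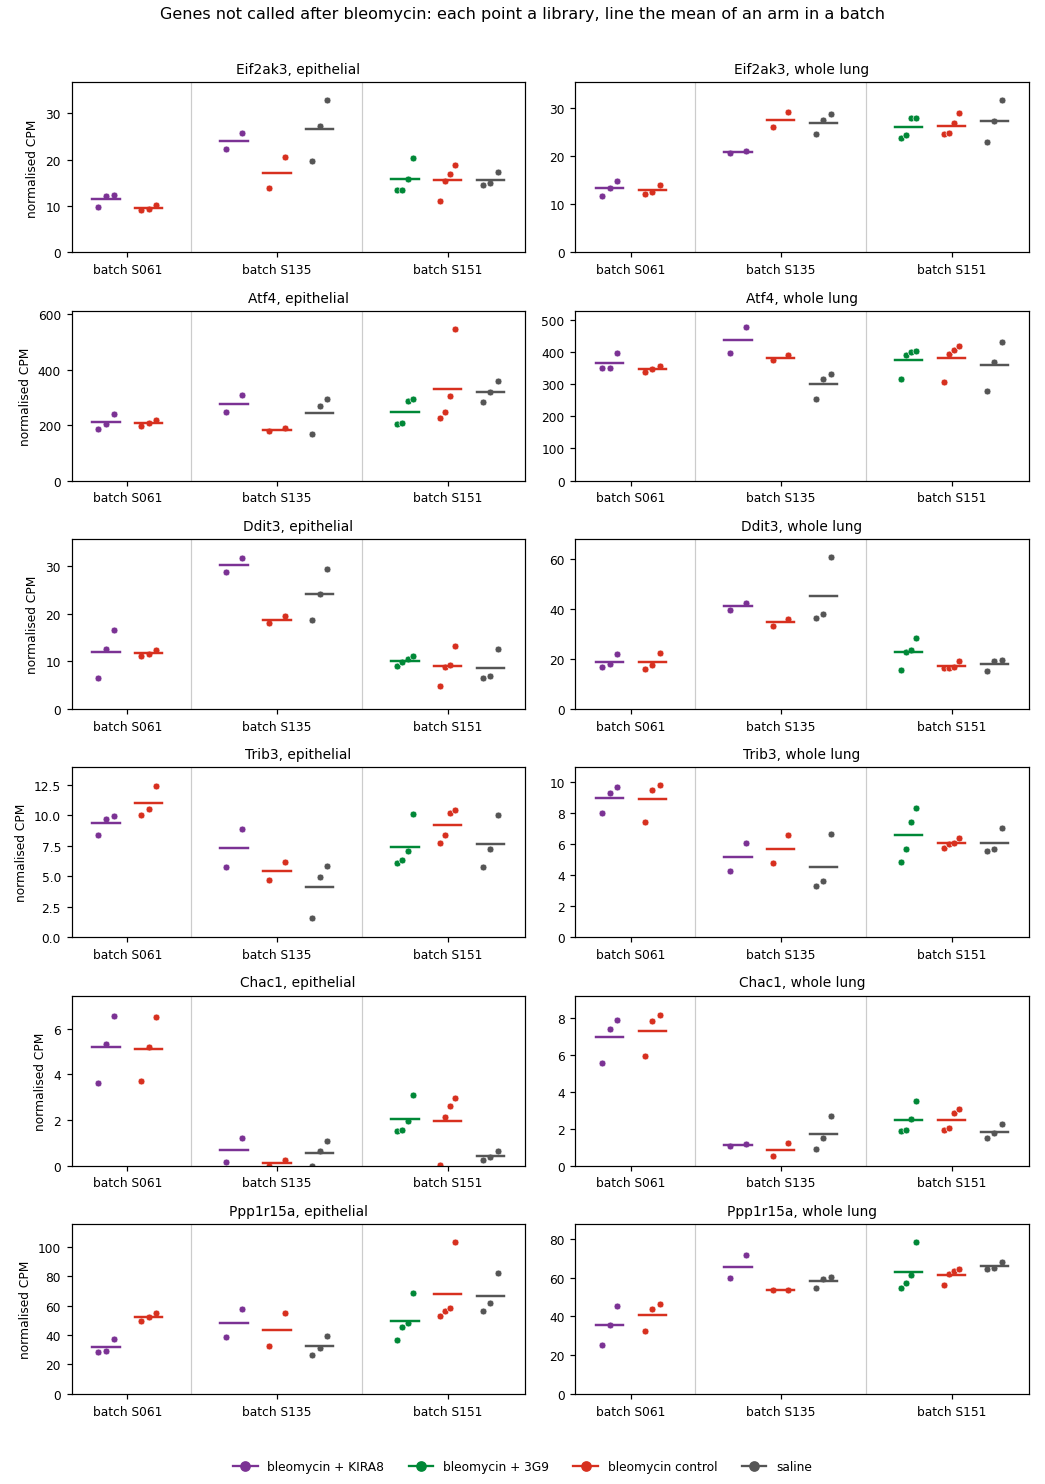
Normalised CPM (vertical axis, linear from 0) of Eif2ak3, Atf4, Ddit3, Trib3, Chac1 and Ppp1r15a in each library, epithelial on the left and whole lung on the right, by batch and arm; points are libraries and lines are the mean of an arm in a batch. Levels differ between batches, as for Chac1 (high in S061) and Ddit3 (high in S135), and the 548 of Atf4 in mouse 206 stands above the other epithelial libraries.

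Blocking IRE1α with KIRA8 in bleomycin mice changed none of the 10 genes by the test. In epithelium 0 of 10 were called, beside 0.26% of all genes (15 higher, 30 lower, and 3 higher and 158 lower with plain library totals), and in whole lung 0 of 10, beside 0.527% (61 higher, 41 lower). At an unadjusted p under 0.05 edgeR's quasi-likelihood test had 2 of the 10 in each compartment. DESeq2 called 1 in each compartment, Psat1, and voom with quality weights called 2 in each, Psat1 and Atf3 in epithelium and Psat1 and Asns in whole lung. The 0.26% and 0.527% hold for the main fit at an adjusted p under 0.05 only. Over all genes, settings other than leaving out a mouse called 0 to 2248 in epithelium and 1 to 1088 in whole lung. The all-gene counts at the unadjusted threshold, with DESeq2 and with voom are not given here. The median log2 difference of the 10 genes was 0.07 in epithelium and -0.06 in whole lung, against 0.02 and -0.01 for all genes.

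Psat1 had the largest KIRA8 difference in whole lung, and with Atf3 the largest in epithelium. Epithelial Psat1 in S061 was 11.3, 19.2 and 21.6 normalised CPM in KIRA8 mice, against 29.8, 32.2 and 52.4 in bleomycin control mice. In S135 it was 12.2 and 17.5 in KIRA8, against 17.4 and 25.0 in bleomycin control epithelium. KIRA8 libraries lay below all bleomycin control libraries in S061, as for 10.6% of all genes, and overlapped with them in S135. The fitted log2 difference was -0.85 ± 0.24 (adjusted p 0.142). Whole lung Psat1 was 10.7, 15.3 and 20.6 in KIRA8 mice of S061, against 28.7, 29.7 and 35.9 in bleomycin control, and 8.45 and 8.62 in KIRA8 mice of S135, against 9.13 and 12.2 in bleomycin control. These did not overlap in either batch, as for 10.3% of all genes that lay below in S061 and 17.8% in S135, the S135 gap was small, and the fit gave -0.88 ± 0.23 (adjusted p 0.0711). Within S061 the differences were -1.24 ± 0.29 in epithelium (adjusted p 0.0796) and -0.98 ± 0.23 in whole lung (adjusted p 0.0858). Within S135 they were -0.51 ± 0.46 (adjusted p 0.953) and -0.34 ± 0.43 (adjusted p 0.884).

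The Psat1 call depended on the setting. DESeq2 gave an adjusted p of 0.0355 in epithelium and 0.0113 in whole lung, voom 0.00157 and 0.00262, and plain library totals 0.0490 in epithelium. When the fit included each library's batch-limited share as a term, the epithelial difference was -0.41 ± 0.25 (adjusted p 0.674) and the whole lung one -1.04 ± 0.24 (adjusted p 0.0398). Without bleomycin control mouse 149 the whole lung difference was -0.99 ± 0.22 (adjusted p 0.0287). KIRA8 mouse 20 of S061, with the lowest epithelial Psat1 of its arm in that batch, had the highest batch-limited share at 12.7% of counts, and the part of that share in the result was not tested beyond the term above.

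Asns followed a like pattern of values. Whole lung Asns was 11.3, 13.3 and 14.7 normalised CPM in KIRA8 mice of S061, against 18.7, 19.2 and 19.7 in bleomycin control, without overlap. Of all genes, 10.3% likewise lay below in whole lung of S061. In S135 whole lung Asns was 10.8 and 13.3 in KIRA8, against 11.7 and 14.4 in bleomycin control, with overlap. The fit gave -0.40 ± 0.14 (adjusted p 0.175). Epithelial Asns in S061 was 4.72, 15.9 and 21.8 in KIRA8, against 20.4, 21.2 and 29.3 in bleomycin control. The 4.72 was mouse 20 again. The epithelial difference was -0.47 ± 0.23 (adjusted p 0.439), 0.07 ± 0.20 with the batch-limited share as a term (adjusted p 0.960) and -0.23 ± 0.16 without mouse 20 (adjusted p 0.670).

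Atf3 lay the other way. Epithelial Atf3 was 26.6, 36.6 and 81.2 normalised CPM in KIRA8 mice of S061, against 24.5, 26.5 and 27.7 in bleomycin control mice. S135 gave 47.0 and 91.7 in KIRA8, against 24.8 and 41.4 in bleomycin control epithelium. The arms overlapped only through the 26.6 of mouse 32 in S061, and 15.9% of all genes lay above without overlap in S135. The fitted log2 difference was 0.84 ± 0.28 (adjusted p 0.228). With the batch-limited share as a term it was 0.53 ± 0.34 (adjusted p 0.698), and without mouse 20 0.53 ± 0.27 (adjusted p 0.525). Whole lung Atf3 was 25.0, 25.1 and 25.6 in KIRA8 mice of S061, against 17.8, 20.0 and 23.9 in bleomycin control, and 32.2 and 33.2 in KIRA8 mice of S135, against 17.7 and 25.5. KIRA8 libraries lay above all bleomycin control libraries in both batches, as did 9.64% of all genes in S061 and 18.5% in S135, and the fit gave 0.26 ± 0.23 (adjusted p 0.617).

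Ppp1r15a and Sesn2 were lower with KIRA8 in S061 epithelium by their values. Ppp1r15a was 28.7, 29.0 and 37.4 normalised CPM in KIRA8 mice, against 49.8, 52.4 and 55.1 in bleomycin control. Within that batch the difference of -0.84 ± 0.15 was called (adjusted p 0.0397), but S135 gave 38.7 and 57.5 in KIRA8, against 32.2 and 54.7 in bleomycin control, and the joint fit -0.26 ± 0.21 (adjusted p 0.704). Sesn2 was 17.1, 17.2 and 17.6 in KIRA8 mice of S061, against 21.2, 21.9 and 24.2 in bleomycin control, and -0.48 ± 0.24 in the joint fit (adjusted p 0.450). In that batch and compartment 4 of the 10 genes (Trib3, Ppp1r15a, Sesn2 and Psat1) lay below without overlap, beside 10.6% of all genes. Genes low in epithelium were those at least 8-fold lower there than in whole lung of saline mice (adjusted p under 0.05). They made up 8.73% ± 1.46 of epithelial counts in KIRA8 and 6.46% ± 1.26 in bleomycin control mice of S061 (SD, n = 3 each). Their part in these values was not tested. Genes limited to batch S061 were not taken out of this set. In S061 epithelium this share and the batch-limited share were both highest in mouse 20 (10.3% and 12.7%). Both were lowest in mouse 45 (5.02% and 6.01%). How far these shares hold the same RNA was not tested. The genes low in epithelium made up 5.02% to 10.3% of counts over the epithelial libraries of S061, against 0.249% to 0.900% over those of S135 and S151. The KIRA8 comparison thus sets a batch with a larger share of such RNA beside one with a smaller share. These genes were picked on saline mice, which lie in S135 and S151 only. Their low share in epithelium of those batches is therefore partly fixed by the choice.

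The kinase and the central factors had other values in the smaller batch. In epithelium of S135 the KIRA8 libraries lay above bleomycin control for Eif2ak3 (22.2 and 25.8, against 14.0 and 20.5), Atf4 (247 and 309, against 179.7 and 188) and Ddit3 (28.9 and 31.8, against 18.1 and 19.5). With 2 mice an arm, 15.9% of all genes did the same. The S061 libraries overlapped for all 3, and the joint fits gave 0.25 ± 0.18 for Eif2ak3 (adjusted p 0.632), 0.20 ± 0.19 for Atf4 (adjusted p 0.756) and 0.25 ± 0.24 for Ddit3 (adjusted p 0.752). Trib3 and Chac1 differed by 0.06 ± 0.25 and 0.08 ± 0.74 in epithelium (adjusted p 0.958 and 0.990).

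**Figure D3:**
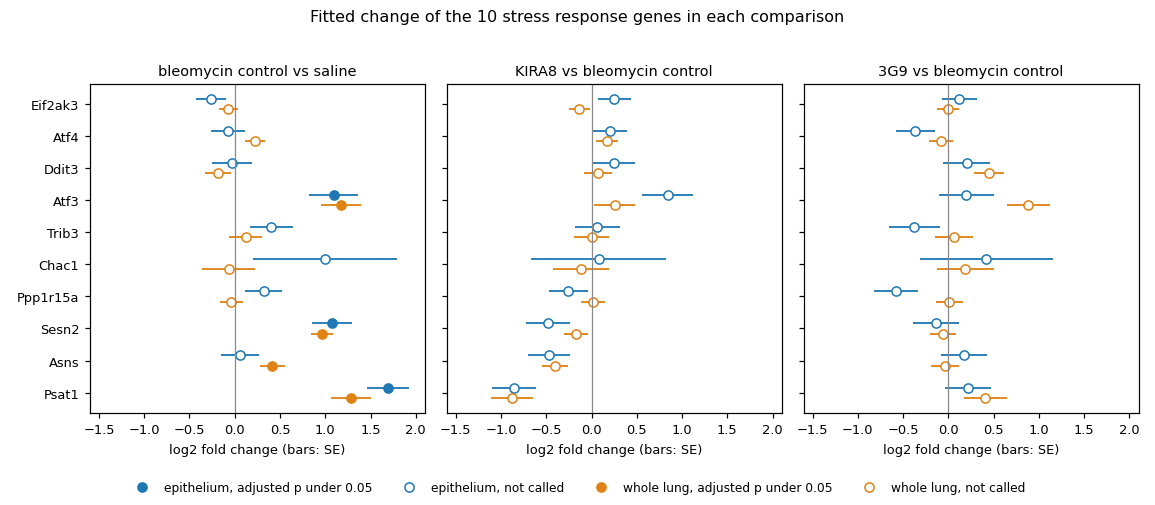
Fitted log2 fold change (horizontal axis) of each of the 10 genes for bleomycin control against saline, KIRA8 against bleomycin control and 3G9 against bleomycin control, in epithelium (blue) and whole lung (orange); bars are SE and filled points have an adjusted p under 0.05. Filled points are seen only for bleomycin, at Atf3, Sesn2 and Psat1 in both compartments and Asns in whole lung.

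Blocking αvβ6 with 3G9 was compared with bleomycin control in the joint fit of all arms and batches, although S151 was the only batch with 3G9 mice. In epithelium 0 of the 10 genes were called, beside 0% of all genes, and in whole lung 0, beside 0.196% (32 higher, 6 lower). At an unadjusted p under 0.05 edgeR's quasi-likelihood test had 1 gene in epithelium and 2 in whole lung. DESeq2 and voom called 0 in epithelium and 1 each, Atf3, in whole lung. The 0% and 0.196% hold for the main fit at an adjusted p under 0.05 only. Over all genes, settings other than leaving out a mouse called 0 to 36 in epithelium and 0 to 331 in whole lung. All-gene counts at the unadjusted threshold, with DESeq2 and with voom are not given here. None of the 10 genes had 3G9 libraries all above or all below the bleomycin control libraries in either compartment, beside 0.781% above and 1.28% below over all genes in epithelium and 1.39% and 1.67% in whole lung.

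Whole lung Atf3 was 22.5, 25.6, 43.0 and 58.4 normalised CPM in 3G9 mice, against 17.2, 21.4, 23.5 and 28.8 in bleomycin control mice. Of the 4 3G9 libraries 2, mice 219 and 218, lay above all bleomycin control libraries, and the fitted log2 difference was 0.88 ± 0.24 (adjusted p 0.157). It was 0.71 ± 0.27 within S151 alone (adjusted p 0.690), and 1.06 ± 0.23 without 3G9 mouse 228 (adjusted p 0.0247). Mouse 218 is the library with the unexplained suffix, and its part was not tested beyond the fits that left out a mouse, where the log2 difference ran from 0.58 to 1.06. Epithelial Atf3 was 11.3, 13.4, 18.8 and 19.0 in 3G9, against 9.69, 11.4, 15.1 and 22.9 in bleomycin control mice, with full overlap (0.20 ± 0.31, adjusted p 1.0).

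Whole lung Ddit3 was 15.5, 22.9, 23.7 and 28.4 normalised CPM in 3G9 mice, against 16.3, 16.3, 16.6 and 19.2 in bleomycin control. Mouse 228 again had the lowest value of the 3G9 mice and the other 3 lay above bleomycin control, with a fitted log2 difference of 0.45 ± 0.16 (adjusted p 0.434). Epithelial Ppp1r15a was 36.8, 45.3, 48.4 and 68.6 in 3G9, against 52.7, 56.5, 58.1 and 103 in bleomycin control mice, -0.58 ± 0.24 in the fit (adjusted p 1.0) and -0.41 ± 0.25 without bleomycin control mouse 206. Epithelial Atf4 differed by -0.37 ± 0.22, and by -0.08 ± 0.18 without that mouse (adjusted p 1.0 each). Psat1, the gene with the largest bleomycin change, was 48.03, 52.4, 59.7 and 67.7 in 3G9 epithelium, against 33.7, 48.6, 50.8 and 57.7 in bleomycin control, and differed by 0.22 ± 0.26 in epithelium and 0.41 ± 0.24 in whole lung (adjusted p 1.0 and 0.849). The fitted differences of the other genes lay between -0.38 and 0.42 in epithelium and between -0.08 and 0.19 in whole lung. KIRA8 and 3G9 were not compared with each other, since no batch held both.

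**Figure D4:**
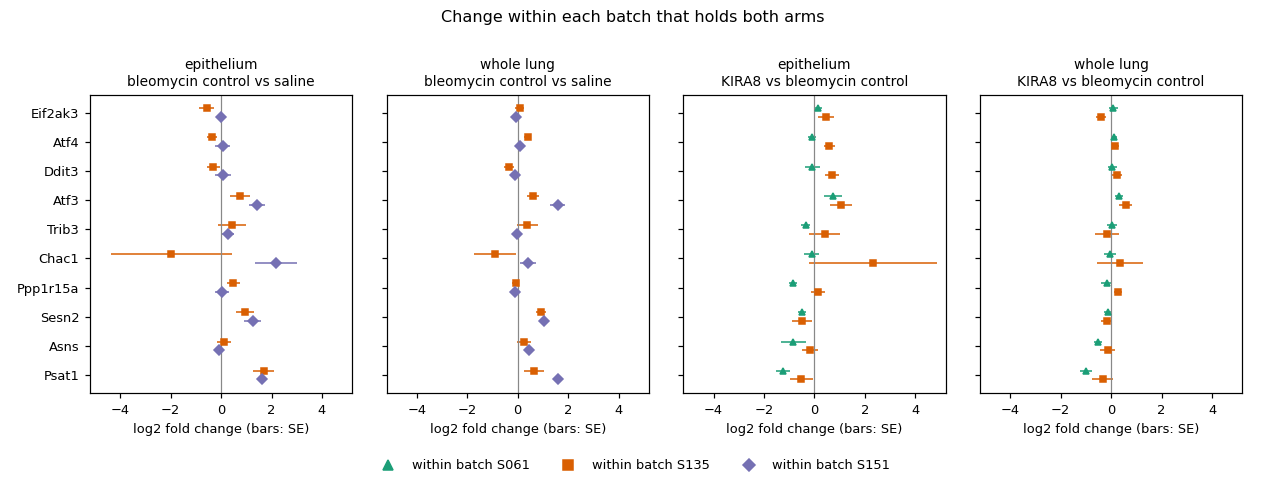
Log2 fold change (horizontal axis, bars SE) of each gene fitted within a single batch, for bleomycin control against saline in S135 and S151 and for KIRA8 against bleomycin control in S061 and S135, in each compartment. Psat1, Sesn2 and Atf3 are above 0 after bleomycin in both batches and compartments, and Chac1 in S135 epithelium has the widest bars.

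Saline mice showed how the genes divide between compartments without injury, with the 2 libraries of each mouse paired. Epithelial and whole lung libraries differed in 4 of the 10 genes, beside 57.5% of all genes tested (4059 higher, 4506 lower in epithelium), a share that leaves nothing particular in the count. Asns, Psat1 and Atf3 were higher and Ddit3 lower in epithelium. With plain library totals the median of all genes moved to -0.84 (1150 higher, 8251 lower), so each value holds only relative to most genes. Relative to that shift Asns stood at 1.59, Psat1 at 0.93, Atf3 at 0.63 and Ddit3 at -0.37, but Atf3 itself turned to -0.21 and Psat1 to 0.09 there.

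Asns had the steadiest difference. Its epithelial over whole lung ratio ran from 2.049 to 3.96 over the 6 saline mice, with a median of 3.14, and the fit gave 1.53 ± 0.18 on the log2 scale (adjusted p 2.07e-05), called in every fit that left out a saline mouse. Over all 24 mice Asns was higher in epithelium in 23, the exception being KIRA8 mouse 20 at 0.660. Psat1 was higher in epithelium in 5 of 6 saline mice and 22 of 24 in all, with a fitted 0.87 ± 0.26 (adjusted p 0.0125). It was 1.21 ± 0.19 within S151 (adjusted p 0.00103) and 0.40 ± 0.44 within S135 (adjusted p 0.492). The call was lost without saline mouse 207 or mouse 230, with an adjusted p of up to 0.0544.

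In saline epithelium the log2 difference was 0.56 ± 0.21 for Atf3 (adjusted p 0.0392) and -0.45 ± 0.16 for Ddit3 (adjusted p 0.0292), and each call was lost in 4 of 6 fits that left out a mouse. Without the pairing by mouse 2 of the 10 genes were called. Over all genes, settings other than leaving out a mouse called 6771 to 9401. Ddit3 was higher in epithelium in 4 of 5 KIRA8, 3 of 9 bleomycin control, 0 of 4 3G9 and 0 of 6 saline mice. Its ratios in saline mice ran from 0.531 to 0.975. Atf3 was higher in epithelium in 5 of 5 KIRA8 mice, 0 of 4 3G9 mice, 6 of 9 bleomycin control mice and 6 of 6 saline mice. KIRA8 and 3G9 mice lie in different batches, S061 held no saline mice, and these counts between arms were not tested.

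Trib3 was higher in epithelium in 23 of 24 mice, with ratios from 0.380 to 2.69 in saline mice, and its fitted difference in saline mice was 0.64 ± 0.40 (adjusted p 0.183), and -0.15 ± 0.40 with plain library totals (adjusted p 0.764). The remaining genes in saline mice gave 0.13 ± 0.17 for Eif2ak3, 0.31 ± 0.13 for Atf4, 0.13 ± 0.20 for Ppp1r15a, 0.14 ± 0.18 for Sesn2 and -1.45 ± 0.81 for Chac1, none of them called.

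**Figure D5:**
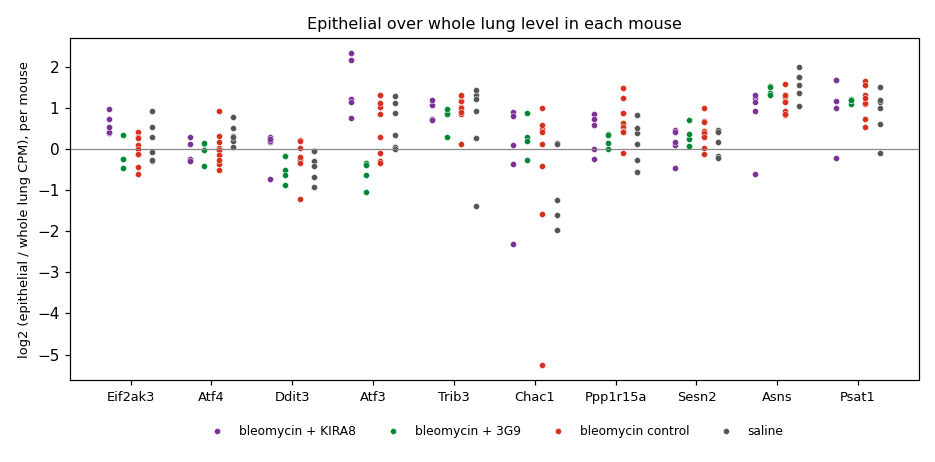
Epithelial over whole lung normalised CPM of each gene in each mouse (vertical axis, log2 scale), by arm, with library sizes scaled over all 48 libraries; each point is a mouse. Asns, Trib3 and Psat1 lie above 0 in most mice, and 2 mice with 0 epithelial counts of Chac1 are not drawn.

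Whether a treatment acted differently on the compartments was tested as an interaction over all 48 libraries with the mouse as a block. For bleomycin control against saline 0 of the 10 genes were called, beside 0.343% of all genes (51 higher, 17 lower in epithelium, and 236 and 9 with plain library totals). For KIRA8 against bleomycin control 0 were called, beside 0.0505% (2 higher, 8 lower, 2 and 21 with RLE scaling, and 0 and 71 with plain library totals). For 3G9 against bleomycin control 0 were called, beside 0%. At an unadjusted p under 0.05 edgeR's quasi-likelihood test had 0, 0 and 2 of the 10 genes in these comparisons, and DESeq2 called 0 in each. The all-gene counts at that unadjusted threshold are not given here.

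The values behind those counts were wide. Epithelial minus whole lung log2 change after bleomycin was 0.39 ± 0.25 for Psat1 (adjusted p 0.631), -0.36 ± 0.22 for Asns (adjusted p 0.628) and 0.79 ± 0.81 for Chac1 (adjusted p 0.819), so the whole lung call of Asns and its absence in epithelium do not amount to a tested difference. For KIRA8 the largest were 0.45 ± 0.23 for Atf3 and 0.40 ± 0.20 for Eif2ak3 (adjusted p 0.458 and 0.459). In S135 the 2 compartments of the same KIRA8 mice had Eif2ak3 on opposite sides of bleomycin control, above in epithelium and below in whole lung (20.7 and 21.2, against 26.0 and 29.3). With 2 mice an arm 15.9% of all genes lay above in epithelium and 17.8% below in whole lung, each compartment taken alone. The share of genes that did both was not computed. The other genes above in S135 epithelium, Atf4, Ddit3 and Atf3, lay above in S135 whole lung too, as did 18.5% of all genes. For Atf4 whole lung had 395 and 477 in KIRA8, against 374 and 390.2 in bleomycin control. For 3G9 the largest were 0.71 ± 0.85 for Chac1, -0.58 ± 0.25 for Atf3 and -0.55 ± 0.23 for Ppp1r15a (adjusted p 1.0 each).

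Likeness over libraries was computed for Atf4, Ddit3 and Asns against the other genes. Pearson's r was taken over 24 libraries of a compartment on log2(normalised CPM + 0.5) after removing each batch mean, as a description in which libraries of an arm share its treatment. Epithelial Atf4 was most like Ppp1r15a among the other 9 genes (r = 0.53, place 824 of 17290 genes) and least like Sesn2 (r = -0.48). Without the epithelial library of mouse 206, high for both, the r of Atf4 with Ppp1r15a was 0.35 and that with Sesn2 -0.52 (23 libraries). Trib3 then stood above Ppp1r15a, at 0.39, so the first place of Ppp1r15a rested on that library. Ddit3 was most like Asns in epithelium (r = 0.45, place 795), which rested on KIRA8 mouse 20, since without it r was 0.07. In whole lung Asns was most like Sesn2 (r = 0.64, place 187 of 19344) and Psat1 (r = 0.56, place 604), and at 0.74 and 0.60 without mouse 20. Genes outside the 10 came closer: the highest for epithelial Atf4 was ENSMUSG00000041341 (r = 0.87, and 0.81 without mouse 206) and for epithelial Asns ENSMUSG00000017897 (r = 0.88, and 0.71 without mouse 20), neither of which is named by the table.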

How the data were processed

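RNA of 24 mice was measured in 48 libraries. The authors deposited 1 table of counts, whole-number reads per Ensembl gene and library with no normalization, as the values show. The tools named per the submitters' processing notes include STAR 2.5.2b, with the build GRCm38; the counting program and the annotation are not stated there. Columns were matched to samples by mouse number and compartment letter, and 0 columns were left unused. No pair of libraries held identical values.

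Counts were tested in R 4.3.3 with edgeR 4.0.16 (TMM, filterByExpr, robust quasi-likelihood, Benjamini-Hochberg over all genes tested, called under 0.05), with arm and batch as terms and all 4 arms of a compartment in a fit. SE is the log2 fold change over the root of F. Libraries of a mouse were paired by the mouse number in the labels in the comparisons between compartments. Within-batch fits used 1 batch. Replicates are separate mice by their numbers in the labels. DESeq2 1.42.0, voom (limma 3.58.1), RLE scaling, other filters, sex as a term, a batch-limited term and leaving out each mouse were alternatives. Plain library totals, fits without S061 for 3G9, likeness without mice 206 and 20, and within-batch fits of saline mice were added after seeing the data. Interaction fits without a mouse kept the dispersion trend of the full fit. The test was checked on simulated data. Batch-limited genes had at least 50 CPM in each S061 library and a median under 0.5 CPM elsewhere. The genes low in epithelium were the 1340 at least 8-fold lower there than in whole lung of saline mice at an adjusted p under 0.05.

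The members and lists were chosen with earlier results of these data known, and all 10 members are named whatever their values. The reference table (GRCm38.p6, 49997 genes) matched 0 of 42548 identifiers, so wider lists of pathway genes and cell type markers were not used here; symbols of the 10 genes came with their identifiers. Likeness was taken for the members Atf4, Ddit3 and Asns against all other genes tested in each compartment. The nearest genes outside the 10 were read from it. Promoter windows are from RefSeq (GRCm38.p6) and all 10 genes matched by symbol.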

Additional observations from a re-analysis of the deposited data

Results flagged for a closer look

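Single libraries stood apart in 6 of 80 groups of 4 to 9 libraries (a gene in an arm and compartment), by the gap to the nearest library relative to the range of the group, and chance alone gives about 1 in 20. Atf4 was 548 normalised CPM in the epithelial library of bleomycin control mouse 206, above the other 8, and Ppp1r15a was 103 in the same library. Among the 4 bleomycin control mice of S151, that library was the lowest for the other 8 of the 10 genes, and so stood apart over the whole set. Without mouse 206 the epithelial bleomycin changes of Psat1 (1.77), Sesn2 (1.16) and Atf3 (1.15) were all called. Whole lung Atf4 was 315 in 3G9 mouse 228, below the other 3. Sesn2 was 11.2 in epithelium of KIRA8 mouse 154, below the other 4, 21.7 in epithelium of 3G9 mouse 226R, below the other 3, and 23.7 in whole lung of saline mouse 230, above the other 5. Groups that span batches mix the batch levels, and what sets these libraries apart was not tested.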

How the results depend on the processing

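Psat1, Sesn2 and Atf3 kept their bleomycin calls in both compartments in all 24 fits that left out a mouse and with sex as a term. The counts below are of the 10 genes. For bleomycin control against saline, 5 were called in epithelium with plain library totals and 1 within S135, against 3, and in whole lung 1 was called within S135, against 4 (3 to 4 with a mouse left out). For KIRA8 against bleomycin control, in place of 0, the epithelial count was 1 with DESeq2, 1 with plain library totals, 2 with voom and 1 within S061, and the whole lung count 1 with DESeq2, 2 with voom, 1 with the batch-limited share as a term, and 0 to 1 with a mouse left out (1 without bleomycin control mouse 149). For 3G9 in whole lung it was 1 with DESeq2, 1 with voom and 0 to 1 with a mouse left out (1 without 3G9 mouse 228). In saline mice, epithelium against whole lung, the paired fit called 4. Without the replicate block it was 2, within S135 2, with plain library totals 7, and 1 to 4 with a mouse left out (2 without mouse 153, 1 without mouse 207). Plain library totals turned the sign there for Eif2ak3 (-0.64), Atf4 (-0.45), Atf3 (-0.21), Ppp1r15a (-0.64), Sesn2 (-0.63) and, called under neither scaling, Trib3 (-0.15), where the median of all genes itself moved to -0.84. For the compartment differences, leaving out the replicate block gave 0 of the 10 genes each and 9, 2 and 0 genes over all, against 68, 10 and 0. Other causes were not tested. Within a single batch fewer mice were fitted.

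Counts over all genes varied more. With a mouse left out they ran from 1035 to 1859 (epithelium) and 1178 to 2283 (whole lung) for bleomycin, 9 to 89 and 0 to 306 for KIRA8, and 0 to 1 and 6 to 211 for 3G9. Over the other settings they ran from 338 to 3622 and 227 to 2996 for bleomycin, 0 to 2248 and 1 to 1088 for KIRA8, and 0 to 36 and 0 to 331 for 3G9. Compartment differences ran from 9 to 266 genes for bleomycin and 2 to 332 for KIRA8. Depth limits Chac1 most, with 0 or 1 counts in some epithelial libraries.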
